A study of Mus musculus with 4 samples.

Results

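The blood-brain barrier transporters described here are 10 genes, Slc2a1, Slc7a5, Slc3a2, Abcb1a, Abcg2, Slco1a4, Slco1c1, Slc16a1, Mfsd2a and Slc38a5, out of 32285 genes in the count matrices. They were chosen by symbol, and all 10 symbols were found once in each of the 4 matrices. The study took single cells of the hippocampus and the sensory cortex from WT mice that had received DOCA-salt (the mineralocorticoid deoxycorticosterone acetate with salt, a model of high blood pressure) or sham treatment. There was 1 library for each of 4 WT groups, which are DOCA-salt and sham in hippocampus and DOCA-salt and sham in cortex. The labels state 3 mice per group and not whether their cells were pooled, and strain, age and sex are not given in the sources used here. Groups follow the library titles. For the cortex DOCA-salt and the hippocampus sham libraries the labels' treatment field names the other treatment, so the direction of every treatment difference rests on the titles.

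The capillaries of the brain have a sealed endothelium, and what the tissue needs is carried across it by membrane transporters. Glucose crosses through SLC2A1 (GLUT1), lactate and ketone bodies through SLC16A1 (MCT1), large neutral amino acids through the pair of SLC7A5 (LAT1) and its heavy chain SLC3A2, and lipids that carry docosahexaenoic acid through MFSD2A, while the ATP-driven pumps encoded by Abcb1a and Abcg2 send drugs and other lipophilic compounds back to the blood. In mice, SLCO1C1 carries thyroxine, SLCO1A4 organic anions, and SLC38A5 glutamine and other small neutral amino acids.

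In endothelial-like cells, 2 of the 10 genes were lower after DOCA-salt in both tissues by the widest margins, the glucose carrier Slc2a1 and the amino acid carrier Slc7a5. Slc2a1 was 0.670 times the sham level in hippocampus and 0.597 times in cortex, and Slc7a5 was 0.674 and 0.572 times. Slc16a1, Slco1a4 and Slco1c1 were above sham in both tissues, Abcg2 and Mfsd2a below it in both, and Slc38a5 was 1.86 times sham in hippocampus and 1.06 times in cortex. With 1 library per group there is no replicate check and no test, and the intervals given with the ratios cover counting error only.

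Each matrix held 11159 to 11402 barcodes and 66824217 to 70173987 unique molecular identifiers (UMIs, 1 for each captured RNA molecule), and 10349 to 10761 cells per library remained after filtering and doublet removal, at a median of 5538 to 5850 UMIs per cell. Pairs of libraries shared 94 to 105 barcode sequences. Endothelial-like cells were named from their markers, all 8 of which were detected in each library, and numbered 871 in hippocampus DOCA-salt, 746 in hippocampus sham, 589 in cortex DOCA-salt and 623 in cortex sham. RNA of other cells was present in them. Their summed astrocyte markers were at 1165 and 559 UMIs per 1000000 UMIs (CPM) in hippocampus DOCA-salt and sham and at 3677 and 3512 CPM in cortex DOCA-salt and sham, and choroid plexus markers were at 4640 CPM in hippocampus sham against 13.9 to 35.6 CPM in the other libraries.

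Upstream sequences are shown for 3 members, because the glucose carrier Slc2a1 and the lactate carrier Slc16a1 differed from sham in opposite directions while both carry a core hypoxia element, and Slco1c1 carries none. They are from RefSeq on build GRCm38.p6, on the strand of the gene and 5′ to 3′. Only bases outside annotated exons are printed, from chr4:119108495-119108710 for Slc2a1, chr3:104638414-104638663 for Slc16a1 and chr6:141524104-141524353 for Slco1c1, all 3 on the plus strand. Capitals mark the matches to the core hypoxia element and the E-box.
Slc2a1: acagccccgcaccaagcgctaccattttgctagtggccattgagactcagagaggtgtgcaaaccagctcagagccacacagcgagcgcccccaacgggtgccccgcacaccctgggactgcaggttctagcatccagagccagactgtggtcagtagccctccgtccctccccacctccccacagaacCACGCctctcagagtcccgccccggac
Slc16a1: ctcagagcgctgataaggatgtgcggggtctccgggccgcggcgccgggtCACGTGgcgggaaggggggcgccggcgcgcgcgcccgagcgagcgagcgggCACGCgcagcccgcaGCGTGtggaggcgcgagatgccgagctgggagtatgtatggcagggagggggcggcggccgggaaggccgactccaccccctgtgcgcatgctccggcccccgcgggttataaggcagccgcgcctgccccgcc
Slco1c1: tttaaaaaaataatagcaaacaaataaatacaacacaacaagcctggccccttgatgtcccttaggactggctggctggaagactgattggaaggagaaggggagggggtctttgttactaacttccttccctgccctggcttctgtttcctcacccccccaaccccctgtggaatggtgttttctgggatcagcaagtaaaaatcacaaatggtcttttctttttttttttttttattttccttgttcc

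The hypoxia element was searched as ACGTG or GCGTG, the TCF/LEF element of Wnt target genes as CTTTGA, the amino acid response element as TGATGNAA and the E-box as CACGTG, all on both strands of the 250 bases before the RefSeq start. That start can lie away from the start of the GENCODE gene given below. The window of Abcb1a, chr5:8566841-8567090, lies far upstream of it, and those of Slc3a2, chr19:8713898-8714147, and Slc38a5, chrX:8271131-8271380, lie inside the gene or nearly so. Of the 9 members in the promoter table, 5 held a hypoxia element, namely Slc2a1, Slc16a1, Slc3a2, Mfsd2a and Slc38a5, and 38.6% of 32817 promoters of the same length did. The stretch printed for Slc16a1 holds 4 such matches, of which 2 lie on opposite strands of its 1 E-box, and that for Slc2a1 holds 1. A TCF/LEF element was found in Mfsd2a, Abcb1a and Slc3a2 and in 13.8% of all promoters, an E-box in Slc16a1 and Slc38a5 and in 6.02%, and no member held the amino acid response element, which 3.45% of all promoters held. These matches describe letters and show no binding, and their part in the ratios was not tested.

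The genes lie at chr4:119108711-119137983 (Slc2a1, plus strand), chr3:104638668-104658462 (Slc16a1, plus), chr8:121881150-121907694 (Slc7a5, minus), chr19:8706882-8723369 (Slc3a2, minus), chrX:8271133-8280179 (Slc38a5, plus), chr5:8660077-8748575 (Abcb1a, plus), chr6:58584523-58695676 (Abcg2, plus), chr6:141805440-141856199 (Slco1a4, minus), chr6:141524368-141570177 (Slco1c1, plus) and chr4:122946850-122961188 (Mfsd2a, minus), by GENCODE vM21 on GRCm38. Slco1a4 and Slco1c1 both lie in the cluster of organic anion carriers on chromosome 6. Near-identical copies could share reads with Abcb1a and Slco1a4. Endothelial-like cells held 13 and 13 UMIs of Abcb1b in hippocampus DOCA-salt and sham and 14 and 8 in cortex DOCA-salt and sham, and at most 4 UMIs of Slco1a5 in any library.

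The comparison of DOCA-salt with sham asked how transporter RNA of the endothelium differed after treatment. Slc2a1, the glucose carrier, was at 1877 CPM in hippocampus DOCA-salt against 2800.0 CPM in hippocampus sham, and at 1847 CPM in cortex DOCA-salt against 3093 CPM in cortex sham. Both DOCA-salt libraries were lower than both sham libraries. The ratio of DOCA-salt to sham was 0.670 (95% interval of counting error 0.650 to 0.691) in hippocampus and 0.597 (0.577 to 0.619) in cortex, from 4851 to 9345 UMIs per library. The distribution over cells was lower at its low, middle and high percentiles. In UMIs per 10000 UMIs of a cell, the median cell had 17.4 in hippocampus DOCA-salt against 26.3 in hippocampus sham and 16.8 in cortex DOCA-salt against 29.2 in cortex sham. The cell at the 10th percentile had 6.04 in hippocampus DOCA-salt against 12.1 in hippocampus sham and 6.42 in cortex DOCA-salt against 13.5 in cortex sham. At the 90th percentile the values were 33.4 in hippocampus DOCA-salt against 48.1 in hippocampus sham and 33.0 in cortex DOCA-salt against 53.6 in cortex sham. These percentiles come from cells of unequal depth and carry the counting error of single cells.

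Slc16a1, the carrier of lactate and ketone bodies, stood the other way. Its level was 295 CPM in hippocampus DOCA-salt against 239 CPM in hippocampus sham, and 247 CPM in cortex DOCA-salt against 178 CPM in cortex sham, and cortex sham was the lowest of the 4. The ratios were 1.23 (1.13 to 1.35) in hippocampus and 1.39 (1.23 to 1.56) in cortex. In cells with no UMI of 8 activation genes (Vwf, Vcam1, Icam1, Lcn2, Lrg1, Ackr1, Selp and Sele), an alternative chosen after the data were seen, the cortex ratio was 1.01 (0.824 to 1.23) and the hippocampus ratio 1.33 (1.13 to 1.57).

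Slc7a5, the light chain that carries large neutral amino acids, was at 408 CPM in hippocampus DOCA-salt against 606 CPM in hippocampus sham, and at 277 CPM in cortex DOCA-salt against 485 CPM in cortex sham. DOCA-salt was below sham within each tissue, and both hippocampus libraries were above the cortex library of the same treatment. The ratios of DOCA-salt to sham were 0.674 (0.631 to 0.719) in hippocampus and 0.572 (0.522 to 0.626) in cortex. Its heavy chain Slc3a2, which brings SLC7A5 to the membrane, was at 1000.1 CPM in hippocampus DOCA-salt against 919 CPM in hippocampus sham and at 948 CPM in cortex DOCA-salt against 982 CPM in cortex sham, with ratios of 1.09 (1.04 to 1.14) and 0.965 (0.914 to 1.02). The light chain thus stood lower beside its partner. Slc7a5 had 40.8 UMIs per 100 UMIs of Slc3a2 in hippocampus DOCA-salt against 65.9 in hippocampus sham, and 29.2 in cortex DOCA-salt against 49.3 in cortex sham.

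Slc38a5, the glutamine carrier, was at 352 CPM in hippocampus DOCA-salt against 189 CPM in hippocampus sham, and at 322 CPM in cortex DOCA-salt against 303 CPM in cortex sham. Hippocampus sham stood apart below the other 3 libraries. The ratio was 1.86 (1.69 to 2.05) in hippocampus and 1.06 (0.965 to 1.17) in cortex. In cells with no activation gene it was 1.04 in hippocampus, short of 1.5-fold, and 0.728 in cortex, below sham.

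Of the efflux pumps, Abcb1a, which encodes P-glycoprotein, was at 970 CPM in hippocampus DOCA-salt against 779 CPM in hippocampus sham, and at 830 CPM in cortex DOCA-salt against 790 CPM in cortex sham. Its ratios were 1.24 (1.18 to 1.31) and 1.05 (0.991 to 1.11). Abcg2, which encodes the breast cancer resistance protein, was lower after DOCA-salt, at 644 CPM in hippocampus DOCA-salt against 723 CPM in hippocampus sham and 602 CPM in cortex DOCA-salt against 684 CPM in cortex sham, with ratios of 0.891 (0.843 to 0.942) and 0.881 (0.824 to 0.941). The pumps therefore stood in another proportion to each other. Abcg2 had 66.5 UMIs per 100 UMIs of Abcb1a in hippocampus DOCA-salt against 92.8 in hippocampus sham, and 72.6 in cortex DOCA-salt against 86.6 in cortex sham.

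The organic anion carriers were above sham in both tissues over all endothelial-like cells, and in cells with no activation gene were at 0.981 (Slco1a4) and 0.996 (Slco1c1) times sham in cortex. Slco1a4 was at 1505 CPM in hippocampus DOCA-salt against 1239 CPM in hippocampus sham and at 1449 CPM in cortex DOCA-salt against 1277 CPM in cortex sham, with ratios of 1.22 (1.17 to 1.26) and 1.13 (1.08 to 1.19). Slco1c1, the thyroxine carrier, was at 1008 CPM in hippocampus DOCA-salt against 866 CPM in hippocampus sham and at 967 CPM in cortex DOCA-salt against 871 CPM in cortex sham, with ratios of 1.16 (1.11 to 1.22) and 1.11 (1.05 to 1.17). Their proportion was similar in the libraries, at 66.99 UMIs of Slco1c1 per 100 UMIs of Slco1a4 in hippocampus DOCA-salt against 69.9 in hippocampus sham and 66.7 in cortex DOCA-salt against 68.2 in cortex sham. Astrocyte-like cells also hold Slco1c1, and astrocyte markers in the endothelial-like cells differed between libraries as given above. In endothelial-like cells with at most 20 UMIs of other classes' markers, the log2 ratio of Slco1c1 was 0.18 in hippocampus and 0.15 in cortex.

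Mfsd2a, the lysophospholipid carrier, was at 307 CPM in hippocampus DOCA-salt against 353 CPM in hippocampus sham, and at 310 CPM in cortex DOCA-salt against 378.5 CPM in cortex sham. Both DOCA-salt libraries were below both sham libraries. The ratios were 0.869 (0.802 to 0.941) and 0.818 (0.746 to 0.896).

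**Figure D1:**
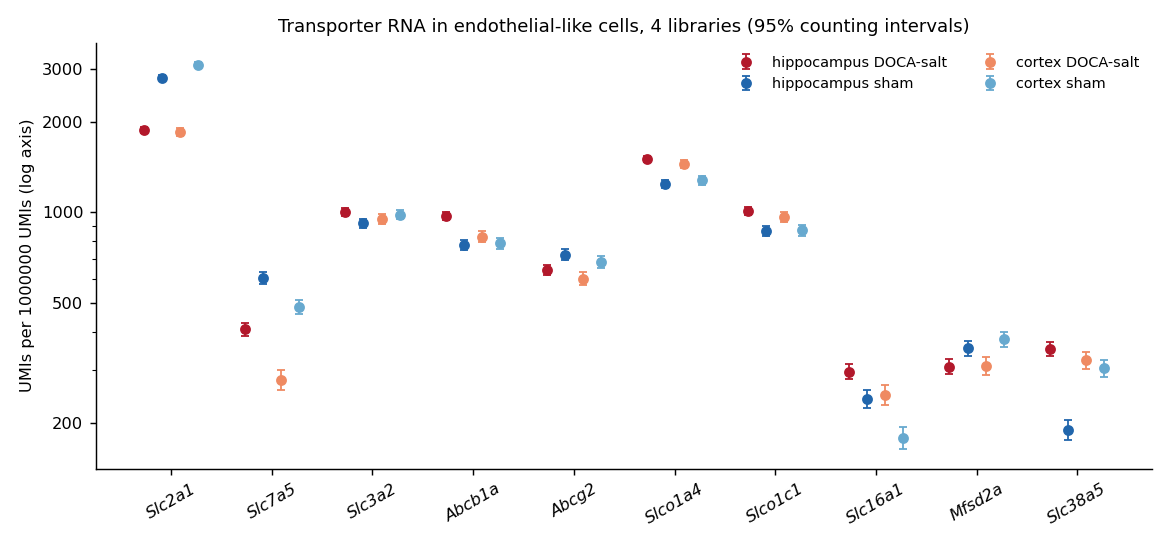
UMIs per 1000000 UMIs (log axis) of the 10 transporters in endothelial-like cells of the 4 libraries, with 95% intervals of counting error. For Slc2a1 and Slc7a5 the DOCA-salt point lies below the sham point of the same tissue, and for Slc38a5 the hippocampus sham point at 189 CPM lies apart from the other 3.

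Set against all genes, the members did not share 1 direction over all endothelial-like cells. All 10 passed the minimum of 20 UMIs in both libraries together. In hippocampus 1 of 10 was at least 1.5-fold higher after DOCA-salt (Slc38a5), where 9.48% of 11583 genes were, and 0 of 10 were at least 1.5-fold lower, where 5.05% of genes were. Slc2a1 and Slc7a5 were just short of that fold. In cortex 2 of 10 were at least 1.5-fold lower (Slc2a1 and Slc7a5), where 4.91% of 11206 genes were, and 0 of 10 were at least 1.5-fold higher, where 7.92% were. The median log2 ratio of the members was 0.17 in hippocampus and 0.01 in cortex, beside 0.04 and 0.03 over all genes.

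Thinned to 2000 UMIs per cell, so that depth is equal, 93.0% of endothelial-like cells in hippocampus DOCA-salt held a UMI of Slc2a1 against 98.4% in hippocampus sham, and 94.5% in cortex DOCA-salt against 99.3% in cortex sham. For Slc7a5 the shares were 49.1% in hippocampus DOCA-salt against 64.1% in hippocampus sham and 41.3% in cortex DOCA-salt against 57.1% in cortex sham. Slc7a5 was thus found in fewer cells after DOCA-salt in both tissues, while 0.228% to 0.784% of oligodendrocyte-like cells, which should lack it, held a UMI at the same depth. Before thinning, 69.7% and 81.2% of endothelial-like cells in hippocampus DOCA-salt and sham and 60.8% and 76.7% in cortex DOCA-salt and sham held Slc7a5. Thinning left out 40 to 61 shallower cells per library, and median depths before it were 3839.5 to 4165 UMIs in endothelial-like and 5566 to 6498 UMIs in oligodendrocyte-like cells.

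Endothelial-like cells were next gated by markers that hold none of the 10 genes into arterial, capillary and venous cells. Hippocampus DOCA-salt had 91 arterial-, 509 capillary- and 255 venous-gated cells against 81, 486 and 163 in hippocampus sham, and cortex DOCA-salt had 76, 319 and 182 against 49, 408 and 155 in cortex sham. The capillary gate took in most cells outside the other gates. Venous-gated cells made up 29.3% of endothelial-like cells in hippocampus DOCA-salt against 21.8% in hippocampus sham and 30.9% in cortex DOCA-salt against 24.9% in cortex sham. These shares follow the gate's own markers, whose sum was 597 CPM in hippocampus DOCA-salt against 404 CPM in hippocampus sham and 573 CPM in cortex DOCA-salt against 401 CPM in cortex sham, so they are no measure of vessel type alone.

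Along the vessel, the carriers followed patterns that recurred in the libraries. Slc38a5 was venous. In venous-gated cells it was at 619 CPM in hippocampus DOCA-salt against 313 CPM in hippocampus sham and at 608 CPM in cortex DOCA-salt against 483 CPM in cortex sham. Venous over capillary ratios were 2.97 (2.64 to 3.34) in hippocampus DOCA-salt and 2.05 (1.74 to 2.42) in hippocampus sham, and 3.80 (3.23 to 4.49) in cortex DOCA-salt and 2.05 (1.79 to 2.35) in cortex sham. In arterial-gated cells it was at 21.3 to 93.5 CPM, from 7 to 25 UMIs per library. Mfsd2a was the reverse. Its venous over capillary ratio was 0.617 (0.543 to 0.701) and 0.701 (0.609 to 0.805) in hippocampus DOCA-salt and sham, and 0.572 (0.488 to 0.669) and 0.512 (0.440 to 0.593) in cortex DOCA-salt and sham.

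Slc7a5, Slc3a2 and Slc16a1 were low in arterial-gated cells. Slc7a5 was there at 225 CPM in hippocampus DOCA-salt against 400.2 CPM in hippocampus sham and at 140 CPM in cortex DOCA-salt against 394 CPM in cortex sham, while capillary-gated cells had 454 and 652 CPM in hippocampus DOCA-salt and sham and 318 and 527 CPM in cortex DOCA-salt and sham. Arterial over capillary ratios were 0.440 to 0.747 for Slc7a5, 0.619 to 0.762 for Slc3a2 and 0.261 to 0.596 for Slc16a1 over the 4 libraries, with every interval below 1. With a gate of 3 markers in place of 2, the log2 ratio of Slc7a5 in cortex sham was 0.11, above even. Slco1c1 and Slc2a1 were lowest in venous-gated cells in each library. For Slco1c1 venous over capillary ratios were 0.766 to 0.918, and for Slc2a1 they were 0.820 to 0.933, with every interval below 1. Arterial and capillary levels of Slc2a1 did not separate beyond counting error in cortex, at ratios of 1.04 (0.956 to 1.14) in DOCA-salt and 1.004 (0.932 to 1.08) in sham. Abcg2 was lower in arterial than in capillary-gated cells in all 4 libraries (ratios of 0.689 to 0.807), and Abcb1a kept no order, with arterial over capillary ratios of 0.893 to 1.36.

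**Figure D2:**
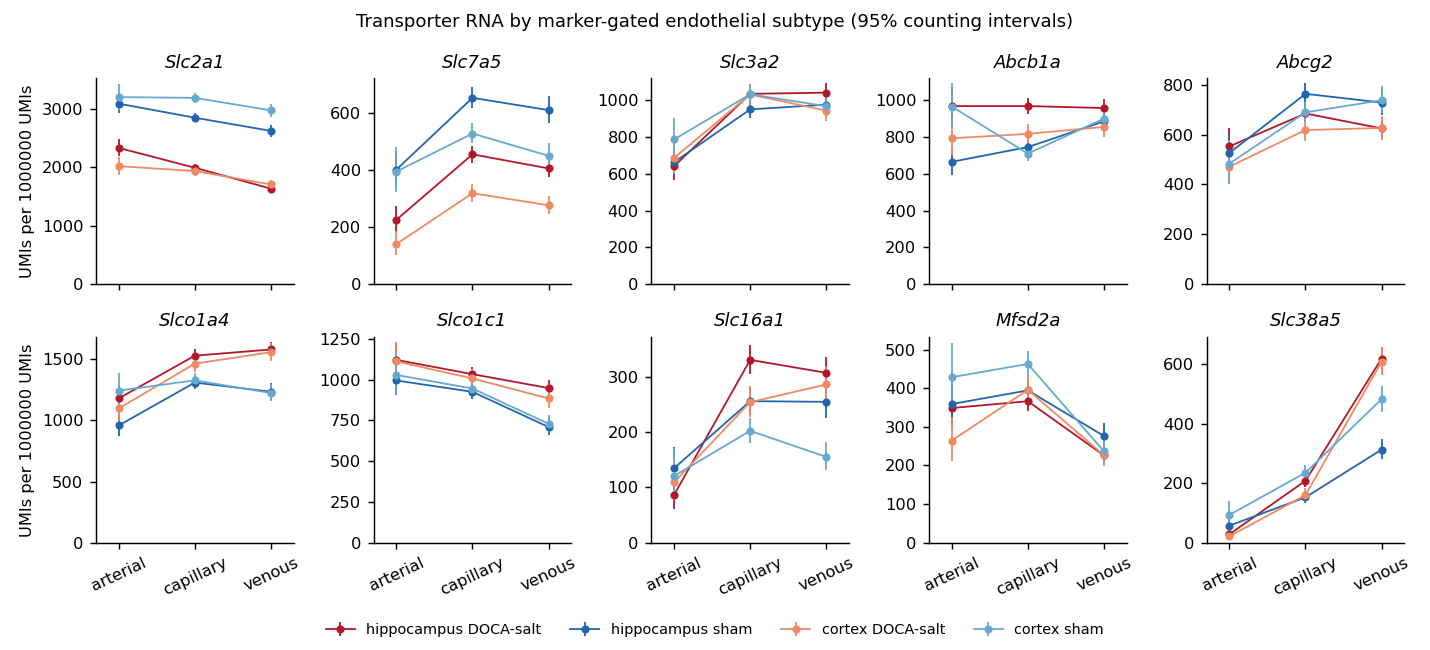
UMIs per 1000000 UMIs of each transporter in arterial-, capillary- and venous-gated endothelial-like cells, 1 line per library with 95% intervals of counting error. Slc38a5 climbs to 313 to 619 CPM in venous-gated cells in each library, and Mfsd2a is lowest there, at 226 to 276 CPM.

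The lower Slc2a1 after DOCA-salt was present in each gate. Ratios to sham were 0.755 (0.695 to 0.820), 0.699 (0.670 to 0.729) and 0.623 (0.590 to 0.657) in arterial-, capillary- and venous-gated cells of hippocampus and 0.631 (0.568 to 0.699), 0.607 (0.578 to 0.637) and 0.573 (0.540 to 0.608) in those of cortex. Slc7a5 was lower in each gate too, with its lowest ratios in arterial-gated cells, 0.561 (0.433 to 0.724) in hippocampus and 0.355 (0.245 to 0.508) in cortex, from 46 to 175 UMIs per library. Whether gates differ in these ratios was not tested. At the subtype shares of sham, the ratio of Slc2a1 was 0.684 in hippocampus and 0.601 in cortex and that of Slc7a5 0.671 and 0.590, close to the ratios over all endothelial-like cells. That of Mfsd2a was 0.899 and 0.858, beside 0.869 and 0.818 over all endothelial-like cells. In arterial-, capillary- and venous-gated cells Mfsd2a was at 349, 366 and 226 CPM in hippocampus DOCA-salt against 359, 395 and 276 CPM in sham. In cortex it was at 264, 396 and 226 CPM in DOCA-salt against 429, 463 and 237 CPM in sham.

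Slc38a5 behaved differently by gate. Its ratio to sham in venous-gated cells was 1.98 (1.74 to 2.25) in hippocampus and 1.26 (1.12 to 1.42) in cortex. In capillary-gated cells it was 1.37 (1.17 to 1.60) in hippocampus and 0.681 (0.570 to 0.812) in cortex. Arterial-gated cells were below sham in both tissues, from 7 to 25 UMIs per library. They held Slc38a5 at 28.1 CPM in hippocampus DOCA-salt against 57.2 CPM in sham, and at 21.3 CPM in cortex DOCA-salt against 93.5 CPM in sham. The near-even cortex value over all cells thus joins a higher venous value with lower capillary and arterial values. At the subtype shares of sham the ratio was 1.66 in hippocampus and 0.980 in cortex. Slc16a1 in venous-gated cells had ratios of 1.21 (1.04 to 1.41) and 1.84 (1.51 to 2.25). In arterial-gated cells Slc16a1 was below sham, from 31 to 59 UMIs per library. It was there at 86.6 CPM in hippocampus DOCA-salt against 135 CPM in sham, and at 109 CPM in cortex DOCA-salt against 121 CPM in sham. The organic anion carriers were above sham in venous-gated cells of both tissues, Slco1a4 at 1.28 (1.20 to 1.37) and 1.27 (1.18 to 1.37) and Slco1c1 at 1.34 (1.22 to 1.46) and 1.21 (1.10 to 1.34). Abcb1a in arterial-gated cells was at 1.46 (1.2503 to 1.70) times sham in hippocampus and 0.821 (0.687 to 0.981) times in cortex. Of the 10 members, 6 were below sham in arterial-gated cells of hippocampus and 9 in those of cortex. Their median log2 ratios there were -0.05 and -0.24, beside 0.03 and 0.004 over all genes of that gate. In capillary- and in venous-gated cells 4 of 10 were below sham in hippocampus and 6 of 10 in cortex.

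**Figure D3:**
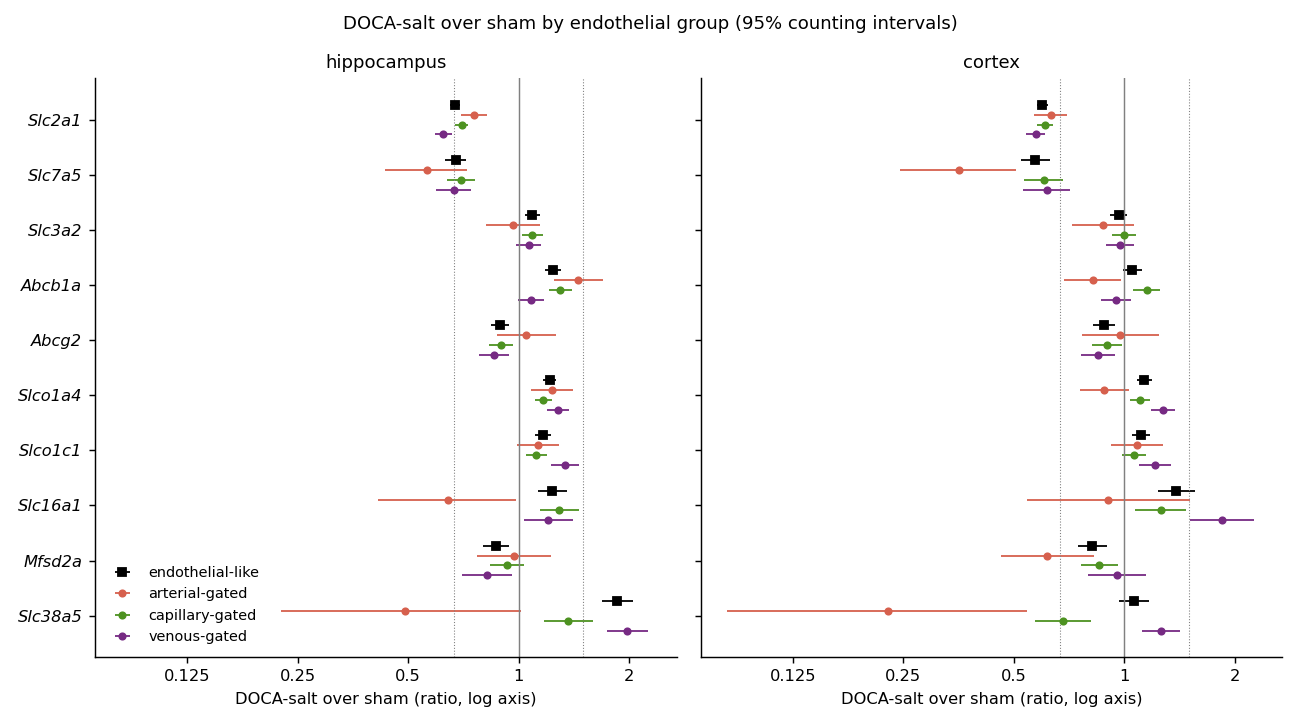
Ratios of DOCA-salt to sham (log axis) for the 10 transporters in all endothelial-like cells (squares) and in arterial-, capillary- and venous-gated cells (circles), with 95% intervals of counting error and dotted lines at 1.5-fold. Slc2a1 and Slc7a5 lie left of 1 in each gate of both tissues, and the gates of Slc38a5 spread to both sides of 1.

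Cells with activation genes were more frequent after DOCA-salt. Those with UMIs of at least 2 of the 8 activation genes made up 29.2% of endothelial-like cells in hippocampus DOCA-salt against 10.99% in hippocampus sham, and 28.0% in cortex DOCA-salt against 16.1% in cortex sham. Their median depth was 5291 to 6547.5 UMIs over the libraries, against 3511 to 3749 UMIs in cells with no activation gene. Their endothelial markers were at 90.6% to 91.6% of the endothelial-like level, against 103.8% to 106.5%. The part of depth in the ratios below was not tested. Set against cells with no activation gene, Slc38a5 was higher and Mfsd2a lower in each library, while for Slc7a5 in both DOCA-salt libraries the ratio was close to 1, at 0.949 (0.840 to 1.07) in hippocampus and 0.999 (0.834 to 1.20) in cortex. Slc38a5 was at 591 CPM against 156 CPM in hippocampus DOCA-salt, 304 against 149.9 CPM in hippocampus sham, 561 against 155 CPM in cortex DOCA-salt and 539 against 213 CPM in cortex sham. Venous-gated cells made up 157 of the 254 cells with activation genes in hippocampus DOCA-salt, and several activation genes are themselves venous. Within venous-gated cells the same ratio of Slc38a5 was smaller, at 2.13 (1.55 to 2.99) in place of 3.79 in hippocampus DOCA-salt, 1.54 (1.14 to 2.11) in place of 2.03 in hippocampus sham, 1.73 (1.29 to 2.36) in place of 3.61 in cortex DOCA-salt and 1.66 (1.28 to 2.19) in place of 2.52 in cortex sham. Venous-gated cells with no activation gene numbered 28 to 49 per library. Depth differed here too, at medians of 6342 to 8187 UMIs with at least 2 activation genes against 3731.5 to 4498 UMIs with none. Over all endothelial-like cells, not venous-gated ones alone, Mfsd2a was lower with at least 2 activation genes than with none. It was at 225 against 338 CPM and 269.7 against 381 CPM in hippocampus DOCA-salt and sham. In cortex DOCA-salt and sham it was at 231 against 358 CPM and 235 against 456 CPM. Mfsd2a was also lower in venous- than in capillary-gated cells, as given above, and the part of vessel type in these values was not tested.

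Among cells with no activation gene, Slc2a1 had ratios to sham of 0.678 (0.644 to 0.713) in hippocampus and 0.594 (0.560 to 0.630) in cortex, and Slc7a5 of 0.675 (0.603 to 0.756) and 0.535 (0.458 to 0.623). These were as low as in all endothelial-like cells. Slc38a5 was near even in hippocampus, at 1.04 (0.851 to 1.27), and below sham in cortex, at 0.728 (0.586 to 0.901). Slco1a4 was at 1.08 (1.01 to 1.15) and 0.981 (0.909 to 1.06), and Slco1c1 at 1.12 (1.04 to 1.22) and 0.996 (0.910 to 1.09). An unnamed cluster of endothelial markers led by Lcn2 and Vwf lay outside the endothelial-like class, with 81 cells in hippocampus DOCA-salt, 5 in hippocampus sham, 0 in cortex DOCA-salt and 1 in cortex sham.

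Between the tissues, no member was at least 1.5-fold higher or lower in hippocampus than in cortex under DOCA-salt (0 of 10), where 4.48% of 11555 genes were higher and 8.14% lower. Under sham 1 of 10 was lower (Slc38a5) and 0 of 10 higher, where 8.73% of 11246 genes were lower and 6.2% higher. Slc38a5 was at 189 CPM in hippocampus sham against 303 CPM in cortex sham, a ratio of 0.624 (0.563 to 0.692). Under DOCA-salt its ratio was 1.09 (1.003 to 1.19). Slc7a5 was higher in hippocampus under both treatments, by ratios of 1.47 (1.35 to 1.61) in DOCA-salt and 1.2502 (1.17 to 1.34) in sham, and so was Slc16a1, by 1.20 (1.09 to 1.32) and 1.34 (1.20 to 1.504). In sham cells without an activation gene the log2 ratio of Slc16a1 was -0.06.

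Outside the endothelium, each member was lower than in endothelial-like cells in each library, but the share of the RNA that lay there differed widely. Endothelial-like cells held 63.8% to 74.5% of all UMIs of Abcb1a, 64.3% to 74.6% of Slco1a4 and 69.0% to 79.6% of Slc38a5, and 9.32% to 19.3% of Slc3a2 and 12.3% to 39.7% of Slco1c1. With pericyte- and smooth muscle-like cells added, these shares were 82.9% to 88.1% for Abcb1a and 81.4% to 87.6% for Slco1a4. They were 87.0% to 89.0% for Slc38a5, 11.6% to 24.7% for Slc3a2 and 15.1% to 48.4% for Slco1c1. Part of the pericyte-like cells, 120 to 198 per library, held endothelial markers at 62.7% to 68.8% of their endothelial level. Smooth muscle-like cells held these markers at 37.0% to 44.2% of that level. Endothelial markers in astrocyte-, oligodendrocyte- and microglia-like cells were at 0.586% to 1.10% of their endothelial level, which sets the level that endothelial RNA alone would give. Abcb1a, Slco1a4 and Slc38a5 were near or below that level in astrocyte- and oligodendrocyte-like cells. Astrocyte-like cells numbered 908 to 3944, oligodendrocyte-like cells 2713 to 4638 and microglia-like cells 2276 to 2555 per library.

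Astrocyte-like cells held 3 members at a large part of their endothelial level. Slco1c1 was at 406 CPM in hippocampus DOCA-salt against 510.3 CPM in hippocampus sham and at 524 CPM in cortex DOCA-salt against 746 CPM in cortex sham, which is 40.2% to 85.7% of the endothelial level. Mfsd2a was at 137 CPM in hippocampus DOCA-salt against 173 CPM in hippocampus sham and at 237 CPM in cortex DOCA-salt against 301 CPM in cortex sham, or 44.8% to 79.6%. Slc3a2 was at 41.5% to 64.5%, and Slc2a1, for which astrocytes are known to hold a form with less sugar attached, at 5.71% to 12.2%. Slc2a1 was not particular to astrocytes among the other classes. It was at 5.94% to 8.87% in oligodendrocyte-like cells and at 15.3% to 20.3% in ependymal-like cells of the hippocampus libraries. Slc16a1 was present in several classes. In oligodendrocyte-like cells, which are known to pass lactate to axons, it was at 87.1 and 78.8 CPM in hippocampus DOCA-salt and sham and 75.6 and 71.8 CPM in cortex DOCA-salt and sham, or 29.5% to 40.3% of the endothelial level, and in astrocyte-like cells it was at 18.1% to 39.7%. In cortex sham these classes were close, with 70.6 CPM in astrocyte-like beside 71.8 CPM in oligodendrocyte-like cells. Microglia-like cells held Slc3a2 at 36.1% to 43.0% and Abcg2 at 5.14% to 6.38%. The 350 choroid plexus epithelium-like cells, counted in hippocampus sham, held Slco1c1 at 251 CPM.

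**Figure D4:**
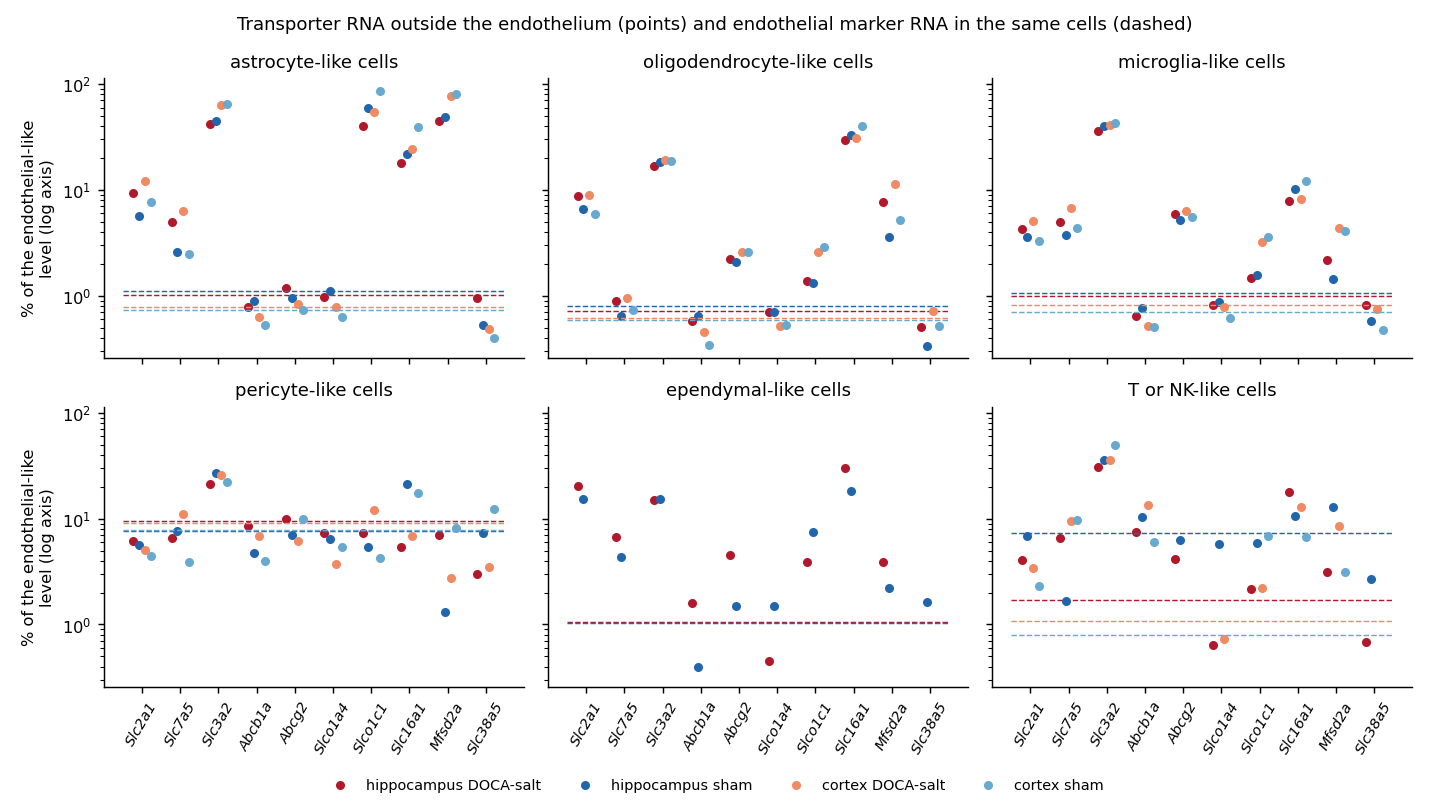
Level of each transporter as a percentage of its endothelial-like level (log axis) in 6 other cell classes, 1 point per library with at least 20 cells of the class, with points at 0 UMIs left out. Dashed lines give the same percentage for the summed endothelial markers, and Slco1c1, Mfsd2a and Slc3a2 in astrocyte-like cells lie far above them.

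In astrocyte-like cells the ratio of DOCA-salt to sham of Slco1c1 was 0.795 (0.756 to 0.835) in hippocampus and 0.703 (0.687 to 0.720) in cortex, on the other side of 1 from the endothelium. It was below 1 in 5 of 5 astrocyte clusters in hippocampus and in 4 of 5 in cortex. Mfsd2a was below sham in astrocyte-like cells too, at 0.794 (0.729 to 0.865) and 0.786 (0.759 to 0.815), and in 4 of 5 clusters of each tissue. Some intervals of single clusters held 1, as for Mfsd2a of hippocampus in those led by Gria1 (0.654 to 1.26) and Myoc (0.774 to 1.11). Slc7a5, at 12.1 to 20.5 CPM in these cells, was at 1.30 (0.997 to 1.70) and 1.44 (1.23 to 1.69) times sham, where the endothelium was lower. Slc2a1 was at 1.09 (0.998 to 1.18) and 0.937 (0.902 to 0.974).

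In oligodendrocyte-like cells Mfsd2a was at 23.4 CPM in hippocampus DOCA-salt against 12.6 CPM in hippocampus sham and at 35.0 CPM in cortex DOCA-salt against 19.6 CPM in cortex sham, with ratios of 1.85 (1.62 to 2.11) and 1.79 (1.56 to 2.06). It was above sham in 4 of 4 clusters with at least 20 UMIs in hippocampus and in 3 of 3 in cortex. In hippocampus the intervals of the clusters led by Ptgds (0.930 to 2.01) and Pou3f1 (0.948 to 3.28) held 1. The highest ratio there rested on 10 UMIs in DOCA-salt. The make-up of this class differed between the hippocampus libraries, where a cluster led by Polr3e, Cryab and Qdpr made up 1.91% of the class in DOCA-salt against 56.7% in sham. The part of this in the ratio of the class was not tested, and the ratio within clusters was 1.36 to 2.37 in hippocampus. Microglia-like cells held Mfsd2a at 5.06 to 15.4 CPM. Astrocyte-like cells, which hold more of it, were 15.9% of cells against 8.52% in hippocampus DOCA-salt and sham. In cortex DOCA-salt and sham they were 36.7% against 30.9%. The part of free astrocyte RNA in the oligodendrocyte-like levels was not tested.

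**Figure D5:**
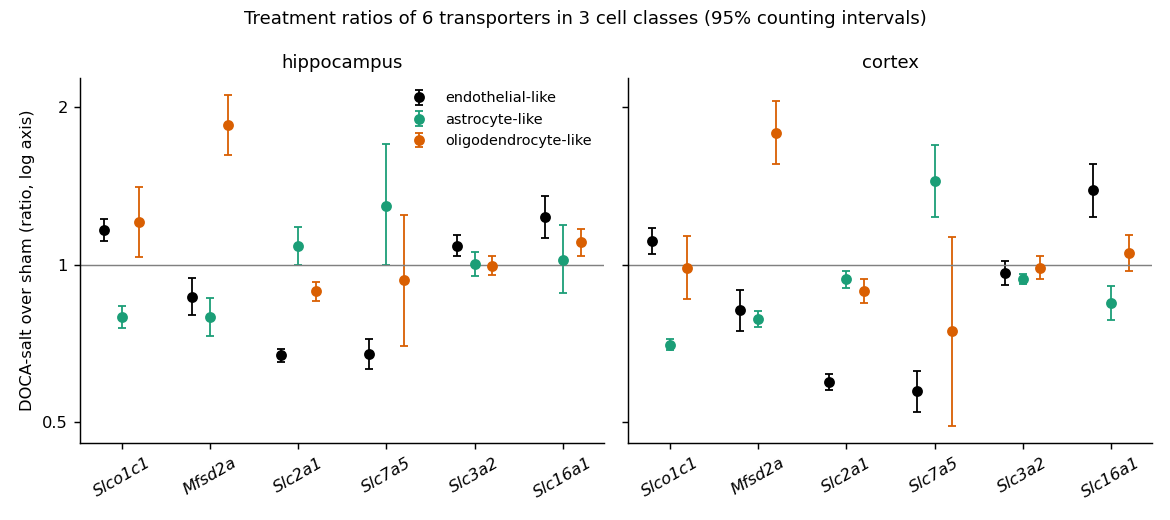
Ratios of DOCA-salt to sham (log axis) of 6 transporters in endothelial-, astrocyte- and oligodendrocyte-like cells, with 95% intervals of counting error. Slco1c1 lies below 1 in astrocyte-like cells and above it in endothelial-like cells, and Mfsd2a lies above 1 in oligodendrocyte-like cells, at 1.85 and 1.79, and below it in the other classes drawn.

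Other lists of barrier genes give the surroundings of these values in endothelial-like cells, and were written with earlier results of these data known. Their counts stand beside the shares over all genes, which were 5.05% lower and 9.48% higher by at least 1.5-fold in hippocampus and 4.91% lower and 7.92% higher in cortex. Of 40 other barrier transporters, 37 passed the minimum of UMIs, of which 2 were at least 1.5-fold lower and 2 higher in hippocampus and 1 lower and 1 higher in cortex, with median log2 ratios of 0.02 and -0.04. The taurine carrier Slc6a6 was at 1.34 and 1.14 times sham in hippocampus and cortex, the zinc carrier Slc39a10 at 1.23 and 1.17, the lipid flippase Atp10a at 0.746 and 0.748 and the efflux pump Abcc4 at 0.806 and 0.718. Of 12 tight junction genes, 11 passed, with 0 lower and 1 higher in hippocampus, 0 in either direction in cortex and medians of 0.02 and 0.04. Claudin 5 RNA (Cldn5), the main seal of these junctions, was at 1.04 and 1.03 times sham, and Esam and Lsr at 0.942 and 0.865 and at 0.874 and 0.917.

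Genes of receptor-mediated transport and vesicles passed for 13 of 15, with 1 higher in hippocampus, no other past 1.5-fold and medians of 0.03 and -0.04. Cav1, which forms caveolae, was at 1.39 and 1.41 times sham, Lrp1, a lipoprotein receptor, at 1.91 and 1.42, and the receptor Igf1r at 0.944 and 0.853. Of the Wnt pathway that keeps the barrier, 21 of 21 genes passed, with medians of -0.08 and -0.11. There, 0 were lower and 1 higher in hippocampus, and 2 lower and 0 higher in cortex. The receptors Fzd4 and Fzd6 were at 0.688 and 0.717 and at 0.747 and 0.652 times sham, while Reck, the co-receptor for WNT7, was at 1.49 and 1.41.

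For the pathways known to govern single members, the amino acid response through ATF4, of which Slc7a5 and Slc3a2 are known targets, had 15 of 18 genes passing, with 2 lower and 0 higher in hippocampus (all genes 5.05% and 9.48%), 0 lower and 3 higher in cortex (all genes 4.91% and 7.92%) and medians of -0.07 and 0.13. Glucose use and hypoxia had 22 of 23 passing, with 0 lower and 5 higher in each tissue, beside 9.48% of all genes higher in hippocampus and 7.92% in cortex, and medians of 0.27 and 0.36. Its members Ankrd37 and Pdk1, which are induced in low oxygen, were at 2.39 (2.10 to 2.72) and 3.56 (2.98 to 4.29) and at 1.89 (1.31 to 2.77) and 2.07 (1.38 to 3.14) times sham, and the hexokinase Hk1 was at 0.794 and 0.758. Slc2a1, also a known target of hypoxia-inducible factors, was below sham in the same cells. The part of oxygen in any of these values was not tested. Sterol and fatty acid genes, set beside Mfsd2a, had 12 of 12 passing, with 0 lower and 4 higher in hippocampus, 0 past 1.5-fold in cortex and medians of 0.34 and 0.24, and the desaturase Fads1 was at 1.51 and 1.38. Of 13 paralogs of the members, 5 passed in hippocampus, with 0 lower and 2 higher and a median of -0.01, and 3 in cortex, with 2 lower and 1 higher and a median of -0.64. These paralog values rest on few UMIs, 10 to 83 per gene and library in hippocampus and 8 to 86 in cortex.

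Likeness of pattern was read as Pearson's r of log2(CPM + 1) over 28 points, 7 cell classes in each of the 4 libraries, which share their cells and depth. Abcb1a and Slco1a4 were most like general endothelial genes, Kif26a (0.992), Ptprb and Flt1 for Abcb1a and Ptprb (0.994), Ly6a and Cldn5 for Slco1a4. Slc7a5 was most like Sptan1 (0.976), Rai14 and Pecam1, Abcg2 like Myl12b (0.977), Pecam1 and Kdr, and Slc38a5 like Itm2a (0.980), Impdh1 and Fn1. Slc2a1 was most like Vwa1 (0.967), and Sox7 was also among its nearest. The members shared with glia had other partners. Slco1c1 was most like the amino acid carrier Slc38a3 (0.978), Hspb8 and Nebl, Mfsd2a like Cd320 (0.952), Fut8 and Nebl, Slc16a1 like Tob1 (0.954), Afdn and Mpzl1, and Slc3a2 like Dpagt1 (0.917), Eogt and Adgrl2.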

How the data were processed

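Single-cell RNA was measured in 4 droplet libraries made with a SeekOne DD 3′ kit, per the labels. The authors' deposited matrices hold counts of UMIs per gene and barcode, made with fastp, STAR, Subread and Seurat on GRCm38 per the submitters' processing notes. Tool versions, annotation and strand setting are not given in the sources used here, so reads of overlapping genes cannot be told apart. As 1 UMI stands for 1 captured 3′ end, values were not divided by length. The proportion of a pair of genes is compared between libraries and says nothing of which gene of the pair is more abundant.

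A barcode needed 300 genes, and no more than 20% of its UMIs from mitochondria (48 to 163 removed per library), and doublets called by Scrublet at an expected rate of 0.08 were removed (4.27% to 6.65%). Clustering used scanpy 1.11.5 without the 10 members, 2000 variable genes, 30 principal components, 15 neighbours and Leiden resolution 1, with mixed clusters divided again at resolution 0.5. Clusters were named from markers. Arterial and venous gates needed UMIs of at least 2 markers and more markers than the other of the pair, and other cells with at least 2 capillary markers were gated capillary. UMIs were summed per class and library and scaled to CPM. Levels carry exact Poisson 95% intervals, ratios exact conditional ones and shares exact binomial ones, all for counting error only, and the ratio code was checked on simulated counts. Free RNA can add UMIs to any class.

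All 10 members are named. From each list, the 2 highest and 2 lowest genes by the interval bound nearest to 1, weaker tissue taken, were named if both tissues lay on that side, and none of the ATF4 list or the paralogs was. A gene of the Wnt list and a gene of the likeness search that these rules name are not reported here. For likeness, classes needed 50 cells per library and genes 200 UMIs. The members and lists were chosen with earlier results of these data known. Software was Python 3.11.15, NumPy 2.4.6, SciPy 1.17.1, pandas 2.3.3 and matplotlib 3.10.9.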

Additional observations from a re-analysis of the deposited data

Results flagged for a closer look

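Slco1c1 differed from sham in opposite directions in 2 cell classes of both tissues. In astrocyte-like cells its ratio of DOCA-salt to sham was 0.795 in hippocampus and 0.703 in cortex, and in endothelial-like cells it was 1.16 in hippocampus and 1.11 in cortex. Mfsd2a did so as well, with 1.85 in hippocampus and 1.79 in cortex in oligodendrocyte-like cells and 0.869 in hippocampus and 0.818 in cortex in endothelial-like cells. With 1 library per group, these differences between classes were not tested.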

How the results depend on the processing

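No paired analysis was possible because each tissue and treatment has 1 library and no test was run. For the same reason no library could be left out, and a fit with library preparation as a term could not be fitted, so treatment and library cannot be told apart. Under other settings, 230 summary values stayed near their main value and 18 moved, and 566 values of single genes stayed and 46 moved. Slc2a1 and Slc7a5 stayed below sham in both tissues under the 13 settings run, Slc2a1 at 0.644 to 0.694 times sham in hippocampus and 0.584 to 0.624 in cortex and Slc7a5 at 0.633 to 0.679 and 0.535 to 0.591. The others below or above sham in the text kept that side, except Slc38a5 in cortex (0.728 to 1.15), Slco1a4 in cortex (0.981 to 1.15) and Slco1c1 in cortex (0.996 to 1.14).

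The count of members at least 1.5-fold lower in hippocampus, 0 in the text, was 2 after thinning, 2 in cells with few UMIs of other classes' markers, 2 when centred on the median of all genes, 2 with the Lcn2 and Vwf cluster added, 2 at a lower fold and 1 with equal weight per cell, since Slc2a1 and Slc7a5 lie near the bound. The count of higher members in hippocampus, 1 in the text, was 0 at a fold of 2 and 0 in cells without an activation gene. In cortex, 0 were lower at a fold of 2 and 1 was higher at a lower fold. Under sham, 0 members were lower in hippocampus than in cortex in cells without an activation gene, and under DOCA-salt 1 was higher with a per-cell marker gate. The median log2 ratio of the members in cortex was -0.10 after thinning, -0.095 in cells with few UMIs of other classes' markers and -0.13 in cells without an activation gene, where that in hippocampus was 0.058. It was 0.26 in arterial-gated cells of hippocampus with few UMIs of other classes' markers and 0.24 in capillary-gated cells of hippocampus with doublets kept, against -0.05 and 0.14. Causes were not tested. The settings without activation genes, with the Lcn2 and Vwf cluster, and with cells of at least 2000 UMIs in place of thinned cells across classes, and the maximum of 20 UMIs, were chosen after the data were seen. Depth limits the arterial-gated values, where Slc38a5 rests on 7 to 25 UMIs per library.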
